A study of Mus musculus with 9 samples.

Results

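Integrin and laminin chains were described across 9 RNA sequencing libraries of mouse mammary tumour cell lines. Members were all genes of the deposited table whose symbol names an integrin alpha or beta chain or a laminin alpha, beta or gamma chain, and 37 of 24346 genes qualified. They comprised 18 integrin alpha, 8 integrin beta, 5 laminin alpha, 3 laminin beta and 3 laminin gamma chains. The tumours arose in FVB/N mice carrying MMTV-neu, a transgene in which the mouse mammary tumour virus promoter drives the neu (Erbb2) oncogene in mammary epithelium. The study set lines with wild-type Jak1, the kinase that relays interferon and gp130-family cytokine signals to STAT factors, against Jak1 knockout lines. Lines 45555, 47298 and 45566B were each sequenced as wild type and as knockout (titled Wt and Cre) and were grown with puromycin. Wild type alone was sequenced for lines 33373 and 33377, and knockout alone for line 46295 (titled D6). Each line and state was 1 library, which made 5 wild-type and 4 knockout libraries. The labels name no separate cultures, so every p-value below measures only the spread between these libraries.

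Integrins are receptors of 1 alpha and 1 beta chain that tie the cell to extracellular matrix and, through talin and kindlin, to actin. Laminins are trimers of an alpha, a beta and a gamma chain and form the main network of basement membranes, on which mammary epithelium rests. Alpha3, alpha6 and alpha7 paired with beta1, and alpha6 paired with beta4, are the classical laminin receptors, and the alpha6-beta4 integrin binds laminin-332 in hemidesmosomes.

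Promoter sequences are shown for 4 genes with large line differences described below: Lamb3 and Itga3, which were higher in line 45566B than in line 45555, and Itga5 and Itga11, which were lower. They are RefSeq windows of 300 bases around an annotated start (build GRCm38.p6), written 5′ to 3′ on the strand of the gene. They lie at chr1:193301993-193302292 on the plus strand (Lamb3), chr11:95076665-95076964 on the minus strand (Itga3), chr15:103366742-103367041 on the minus strand (Itga5) and chr9:62677605-62677904 on the plus strand (Itga11). Lamb3 and Itga3 each have 1 further annotated start, which is not shown. Capitals mark every match, on either strand, to 6 motifs: the AP-1 site TGANTCA, the E-box CAGGTG bound by ZEB and SNAI repressors, the GAS element TTCNNNGAA bound by STAT dimers, the interferon-response-like motif (GAAA, any 2 bases, GAAA), the GC box GGGCGG and the TATA box TATAAA.
Lamb3: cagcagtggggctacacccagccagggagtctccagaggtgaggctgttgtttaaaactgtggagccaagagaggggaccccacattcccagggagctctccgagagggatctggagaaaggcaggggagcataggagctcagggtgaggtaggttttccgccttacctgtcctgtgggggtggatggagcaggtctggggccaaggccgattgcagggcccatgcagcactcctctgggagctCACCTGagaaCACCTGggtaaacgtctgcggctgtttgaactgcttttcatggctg
Itga3: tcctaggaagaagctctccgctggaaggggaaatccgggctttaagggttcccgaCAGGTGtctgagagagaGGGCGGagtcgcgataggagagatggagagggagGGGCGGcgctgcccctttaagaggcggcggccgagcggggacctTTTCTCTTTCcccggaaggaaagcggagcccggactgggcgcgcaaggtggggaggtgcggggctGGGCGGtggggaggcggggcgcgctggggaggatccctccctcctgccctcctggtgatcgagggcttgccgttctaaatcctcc
Itga5: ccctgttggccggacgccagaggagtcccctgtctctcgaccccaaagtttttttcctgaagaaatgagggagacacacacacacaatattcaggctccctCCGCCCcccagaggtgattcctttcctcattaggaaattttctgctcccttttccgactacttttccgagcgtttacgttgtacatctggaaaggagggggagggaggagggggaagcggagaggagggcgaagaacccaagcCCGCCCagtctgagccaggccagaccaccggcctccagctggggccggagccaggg
Itga11: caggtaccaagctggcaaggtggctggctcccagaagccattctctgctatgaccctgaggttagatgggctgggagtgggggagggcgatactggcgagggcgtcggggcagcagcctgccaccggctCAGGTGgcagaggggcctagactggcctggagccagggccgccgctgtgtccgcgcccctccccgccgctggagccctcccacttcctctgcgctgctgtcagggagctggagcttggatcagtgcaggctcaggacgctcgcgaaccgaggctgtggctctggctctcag
The Lamb3 window held the E-box at 2 places, both on the opposite strand, close to the start. The Itga3 window held 1 E-box, 3 GC boxes and 1 interferon-response-like match, the Itga11 window held 1 E-box, and the Itga5 window held 2 GC boxes. The table held 26 windows of 23 members. The E-box was in 30.8% of those windows and in 20.2% of all 32851 promoters, the AP-1 site in 11.5% and 7.81%, the GAS element in 7.69% and 8.30%, the interferon-response-like motif in 7.69% and 3.44%, the GC box in 46.2% and 35.7%, and the TATA box in 0% and 13.6%. Both a gene that was higher and one that was lower in line 45566B carried the E-box, and a match describes letters only.

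The 9 libraries had 10821 to 11622 genes at 1 FPKM (fragment counts corrected for transcript length and library size) or more, and the absolute number of fragments is unknown. Relative depth, set to 1 in 45566B wild type, ran from 0.416 in 46295 to 0.767 in 33377 among the other 8 libraries. It is the inverse of the most common ratio of a gene's value to that in 45566B wild type, among genes low in both. In those 8 libraries only 9.58 to 12.2% of the genes used lay at that ratio, so the depth is approximate. Jak1 was at 86.7 and 74.4 FPKM in 45555 (wild type, then knockout, as in every pair of values below), 63.1 and 27.5 in 47298 and 16.1 and 14.2 in 45566B. It was at 19.4 in 33373, 54.6 in 33377 and 23.0 in 46295, so the knockout was lower within each line while the groups overlapped, and a value over the whole gene does not check a deletion of part of it. The summed FPKM of 10 luminal epithelial markers was 7.24 and 7.49 in 45555, 100.04 and 414 in 47298, 3162 and 3174 in 45566B, 2701 in 33373, 162 in 33377 and 3238 in 46295. That of 9 fibroblast markers was 5270.1 and 3991 in 45555, 5635 and 356 in 47298, 1.09 and 1.31 in 45566B, 197 in 33373, 398 in 33377 and 3.07 in 46295. The luminal markers did not move as one in lines 45555 and 47298. Epcam was at 0.169 to 0.581 FPKM in their 4 libraries, while Krt8 was at 0.458 and 0.637 in 45555 and 38.5 and 157 in 47298. Krt19 was at 5.37 and 4.70 in 45555 and 5.97 and 0.307 in 47298, and was listed at 0 in 45566B. In bulk RNA, fewer cells of a type and less RNA per cell cannot be told apart.

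Averaged over the 9 libraries, 26 of the 37 chains reached 1 FPKM, and 11 were at 1 FPKM or more in every library. Another 7 stayed under 1 FPKM everywhere: the leukocyte chains Itgad, Itgae, Itgal, Itgam and Itgax, the lymphocyte chain Itga4 and the laminin gamma chain Lamc3, with a highest value of 0.608 (Itgad in 47298 wild type). The remaining 4 with a low mean were Itga2b (highest 1.91), Itgb7 (1.91), Lama1 (3.13) and Lama3 (4.06). The chains spread widely between libraries. The ratio of the highest to the lowest value, each plus 1 FPKM, was over 8 in 65.4% of the 26 chains (median 15.9) and in 19.6% of the 12198 genes with such a mean (median 2.83).

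**Figure D1:**
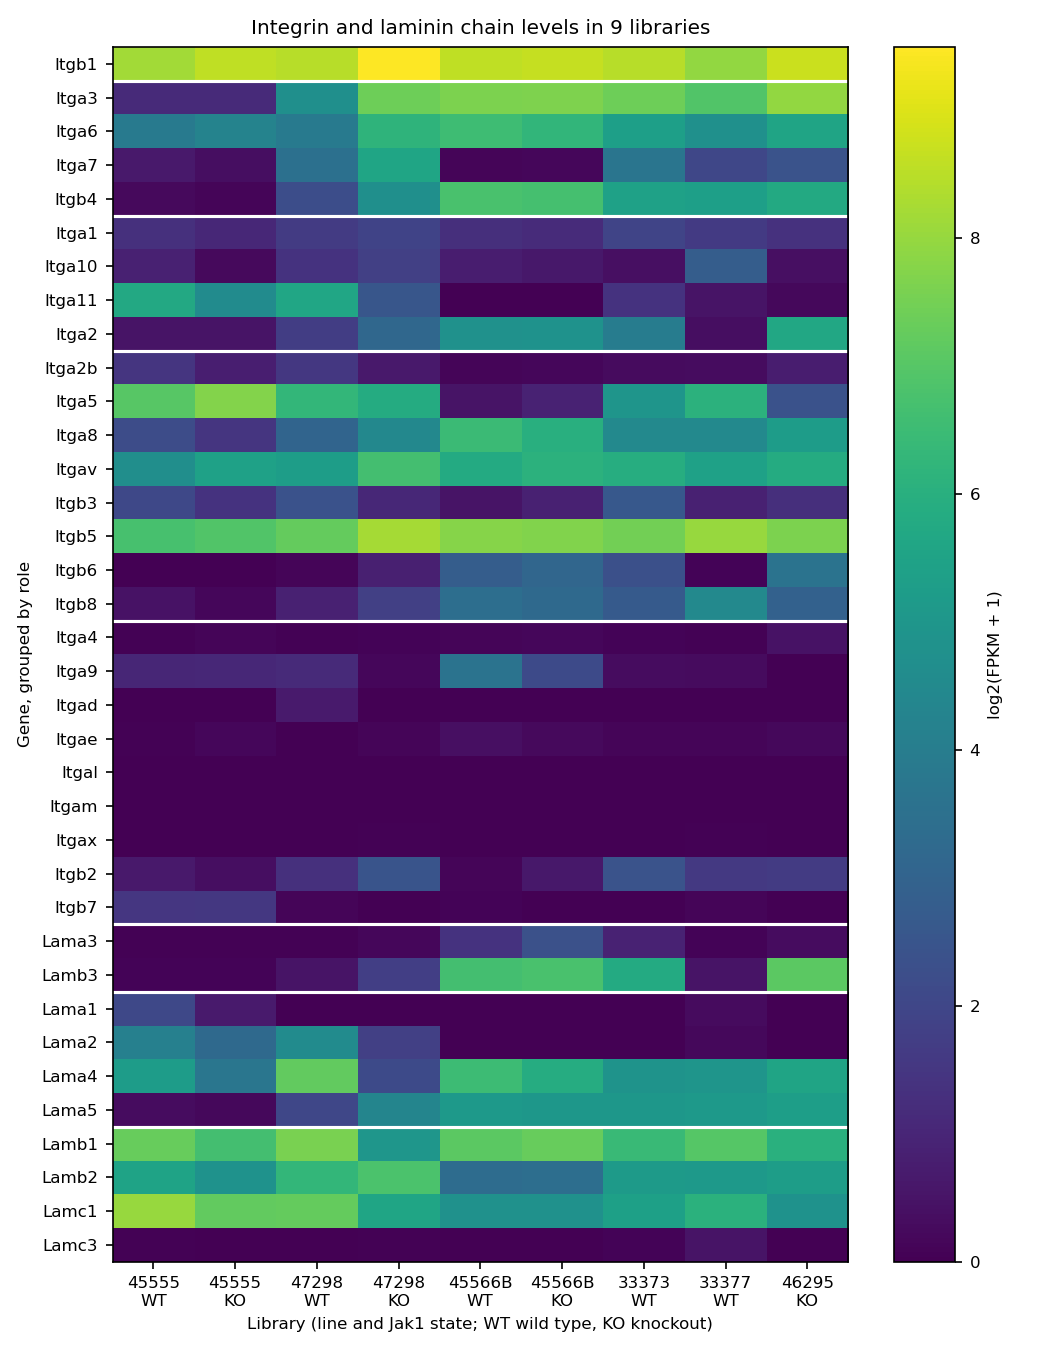
Level of the chains described here (rows, grouped by role) in each of the 9 libraries (columns, WT wild type and KO knockout), as log2(FPKM + 1) in colour. Itgb1 is high in every library, while Lamb3 is high in 45566B, 33373 and 46295, Itgb4 in these and 33377, and Itga11 and Lama2 in 45555 and 47298 wild type.

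The common beta chain Itgb1, which pairs with most alpha chains here, was the most abundant chain in every library except 33377. It was at 286 and 381 FPKM in 45555, 351 and 720.5 in 47298, 387 and 406 in 45566B, 352 in 33373, 246 in 33377 and 423 in 46295. Its lowest and highest values thus lay within a factor of 3, and it made up 43.3 to 75.6% of the summed beta chains of a library. Itgb5, the vitronectin-binding partner of the alpha-v chain, took most of the rest, with 105 and 119 FPKM in 45555, 149.8 and 297 in 47298, 219 and 207 in 45566B, 177 in 33373, 258 in 33377 and 196 in 46295. In 33377 the level of Itgb5 passed that of Itgb1.

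Among the laminin-binding integrin chains, Itga3 was at 1.22 and 1.18 FPKM in 45555, 25.4 and 169 in 47298, 197 and 203 in 45566B, 169 in 33373, 120.1 in 33377 and 248 in 46295. Both libraries of 45555 were far below every other library. Itga6, the partner of beta4 and of beta1, was present throughout, at 13.6 and 18.1 FPKM in 45555, 14.1 and 70.8 in 47298, 92.9 and 75.0 in 45566B, 39.7 in 33373, 26.2 in 33377 and 45.2 in 46295. Itgb4, the hemidesmosome chain, was at 0.180 and 0.0946 FPKM in 45555, 3.76 and 25.5 in 47298, 108 and 103 in 45566B, 42.3 in 33373, 40.3 in 33377 and 53.6 in 46295. The level of Itgb4 relative to that of Itga6 was 1.07 to 1.53 in the libraries of 45566B, 33373, 33377 and 46295, 0.267 and 0.360 in 47298, and 0.0133 and 0.00522 in 45555. In 45555, therefore, the alpha6 transcript was present with almost no beta4 transcript. Itga7, the muscle-type laminin receptor chain, was at 10.5 and 46.3 FPKM in 47298, the second of which was its highest value, and at 0.0892 and 0.116 in 45566B, 0.549 and 0.267 in 45555, 12.03 in 33373, 3.09 in 33377 and 4.45 in 46295.

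Of the collagen-binding chains, Itga11, the chain of the fibroblast collagen receptor, was at 52.3 and 22.7 FPKM in 45555, 47.7 and 4.81 in 47298, 0.0257 and 0.0155 in 45566B, 1.62 in 33373, 0.409 in 33377 and 0.160 in 46295. Itga2, the epithelial and platelet collagen receptor chain, was low in 45555 and high in 45566B, with 0.405 and 0.401 FPKM in 45555, 2.30 and 7.91 in 47298, 26.6 and 27.3 in 45566B, 14.7 in 33373, 0.277 in 33377 and 50.6 in 46295. In 33377 both chains were under 1 FPKM. Itga1 was low and even, at 1.07 to 2.89 FPKM, and Itga10, the cartilage-type chain, ran from 0.187 in 45555 knockout to 6.02 in 33377.

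Itga5, the fibronectin receptor chain, was at 129.9 and 212 FPKM in 45555, 77.2 and 56.5 in 47298, 0.403 and 0.866 in 45566B, 30.2 in 33373, 66.8 in 33377 and 4.29 in 46295. It made up 56.1 and 70.3% of the summed alpha chains in 45555 and 0.0851 and 0.196% in 45566B. Itga3 made up 0.525 and 0.392% in 45555 and 41.6 and 45.9% in 45566B, so the leading alpha chain differed between these lines. Itgav, the chain shared by the vitronectin and TGF-beta-activating integrins, varied less, with 24.6 and 41.7 FPKM in 45555, 37.8 and 101 in 47298, 55.1 and 68.2 in 45566B, 59.8 in 33373, 42.4 in 33377 and 56.7 in 46295. Its partners differed more. Itgb6, the epithelial partner that activates latent TGF-beta, was at 0 and 0.0167 FPKM in 45555, 0.0866 and 0.781 in 47298, 5.98 and 7.82 in 45566B, 4.01 in 33373, 0.0554 in 33377 and 11.2 in 46295. Itgb8, which also activates latent TGF-beta, was at 0.380 and 0.122 FPKM in 45555, 0.819 and 2.50 in 47298, 9.87 and 8.60 in 45566B, 5.52 in 33373, 21.1 in 33377 and 6.66 in 46295. In 33377, Itgb8 was thus at its highest while Itgb6 was near 0. Itga8, the nephronectin receptor chain, ran from 1.79 FPKM in 45555 knockout to 87.9 in 45566B wild type, and Itgb3 from 0.419 in 45566B wild type to 5.13 in 33373.

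Of the chains known from leukocytes or from alpha4 and alpha9 integrins, Itga9, a receptor chain for tenascin and osteopontin, reached 11.2 and 3.44 FPKM in 45566B, was 1.02 and 1.09 in 45555 and 1.16 and 0.118 in 47298, and did not exceed 0.232 in the other lines. Itgb2, the common beta chain of leukocyte integrins, was at most 4.58 FPKM, in 47298 knockout. The leukocyte marker sum was 0.726 to 20.1 FPKM in wild-type libraries and 1.13 to 106 in knockout libraries, where the highest value, in 46295, was nearly all Cd68 (106 FPKM) with Ptprc, Cd3e and Tyrobp listed at 0. Of the 9 markers, 7 were under 1 FPKM everywhere. Its part in the level of Itgb2 was not tested.

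**Figure D2:**
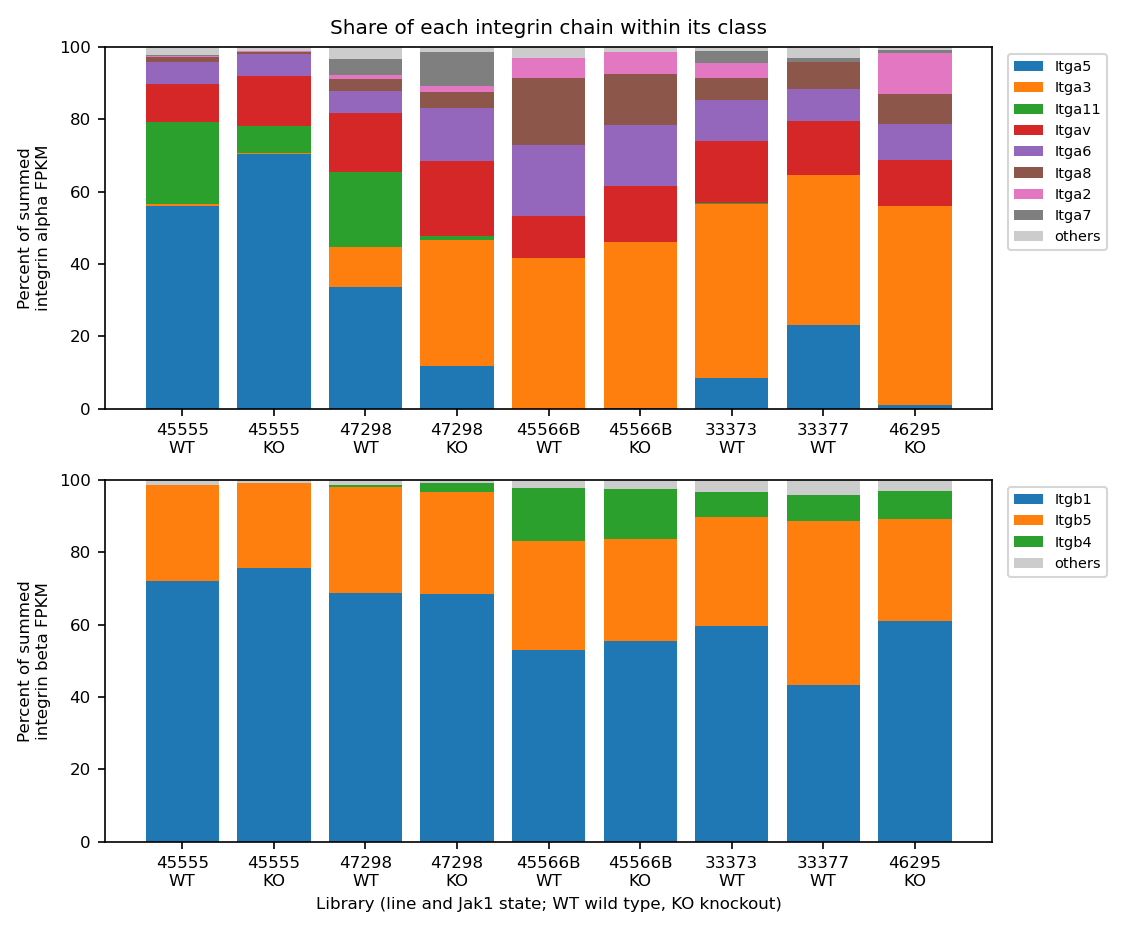
Percent of the summed FPKM of the integrin alpha chains (upper panel) and beta chains (lower panel) that each chain takes, in each of the 9 libraries. Itga5 leads the alpha chains in both libraries of 45555 and Itga3 in both libraries of 45566B, and Itgb1 holds 43.3 to 75.6% of the beta chains.

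Lamb3, the beta chain of laminin-332, differed widely between libraries. It was at 0.0687 and 0.0618 FPKM in 45555, 0.421 and 2.38 in 47298, 100.5 and 109 in 45566B, 54.4 in 33373, 0.416 in 33377 and 137 in 46295. It was high in the libraries of 45566B, 33373 and 46295 and low in the other 5. Lama3, the only alpha chain of laminin-332, stayed low, at 1.62 and 4.06 FPKM in 45566B, 0.897 in 33373 and 0.236 in 46295, and at most 0.111 in the other 5 libraries. Where Lamb3 was high, its level was 62.0 and 26.9 times that of Lama3 in 45566B, 60.6 times in 33373 and 581 times in 46295. The longest annotated transcript is 10548 bases for Lama3 and 4867 for Lamb3, and Lama5, with 11388 bases, was at 31.4 to 39.5 FPKM in those 4 libraries. The part of transcript length in the Lama3 level was not tested.

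Among the other laminin alpha chains, Lama4, the chain of vessel and mesenchymal basement membranes, was at 37.0 and 12.2 FPKM in 45555, 147 and 3.34 in 47298, 90.7 and 57.7 in 45566B, 28.7 in 33373, 29.8 in 33377 and 46.2 in 46295. Lama5, the main alpha chain of adult epithelial basement membranes, was at 0.230 and 0.144 FPKM in 45555, 3.03 and 19.2 in 47298, 33.8 and 31.6 in 45566B, 31.4 in 33373, 34.3 in 33377 and 39.5 in 46295. Lama2, the muscle and nerve chain, was at 16.4 and 8.37 FPKM in 45555, 22.8 and 2.51 in 47298, and at most 0.164 in the other 5 libraries. Lama5 was therefore even across 45566B, 33373, 33377 and 46295 but near 0 in 45555, where Lama2 was present. Lama4 held 65.1 and 57.1% of the summed alpha chains in 45555, 85.0 and 13.3% in 47298, 71.9 and 61.8% in 45566B, 47.1% in 33373, 46.2% in 33377 and 53.7% in 46295.

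Of the beta and gamma chains outside laminin-332, Lamb1 was at 155 and 100.1 FPKM in 45555, 192 and 31.1 in 47298, 137 and 157 in 45566B, 85.8 in 33373, 127 in 33377 and 64.5 in 46295. Lamb2, the beta chain of muscle and kidney basement membranes, was lowest in 45566B, at 9.27 and 9.71 FPKM, against 44.5 and 27.7 in 45555, 76.7 and 112 in 47298, 35.5 in 33373, 34.0 in 33377 and 37.8 in 46295. Lamc1, the gamma chain of most laminins, was at 259 and 146 FPKM in 45555, 150.2 and 47.0 in 47298, 27.1 and 27.0 in 45566B, 41.5 in 33373, 65.5 in 33377 and 27.6 in 46295.

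**Figure D3:**
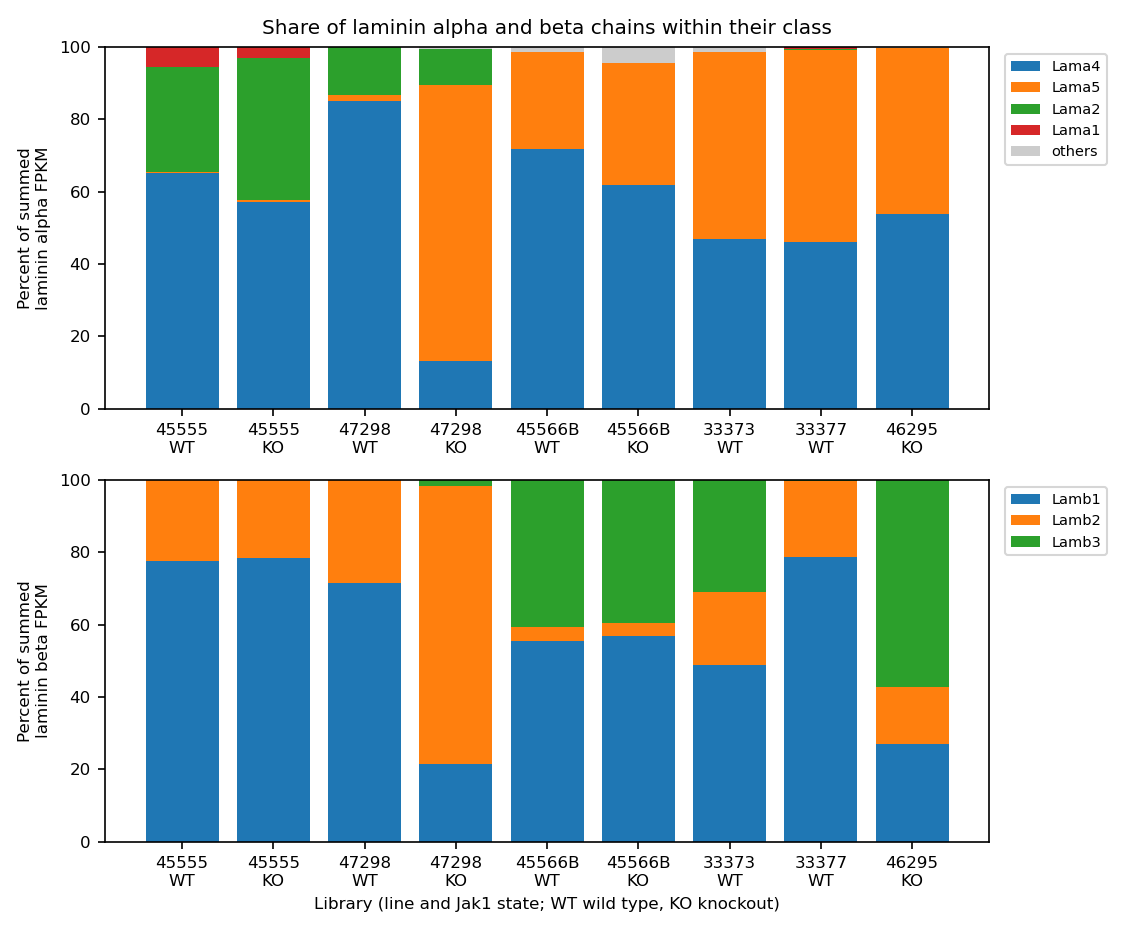
Percent of the summed FPKM of laminin alpha chains (upper panel) and beta chains (lower panel) that each chain takes, in each of the 9 libraries. Lamb3 takes a visible share in 45566B, 33373 and 46295, and in 47298 the leading alpha and beta chains are Lama4 and Lamb1 in wild type and Lama5 and Lamb2 in knockout.

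Lines were compared over the 3 lines present in both states, with Jak1 state as a covariate, so each line had 2 libraries. Those 2 libraries differ in Jak1 state and are not repeats. The spread behind these p-values is therefore how unlike the knockout difference was between lines, and the same holds for the paired comparison below. In the test of any difference between the lines (limma, Benjamini-Hochberg adjustment over 12063 genes), 13 of 26 tested chains passed an adjusted p of 0.05, against 14% of all genes (1694). Line 45566B differed from 45555 in 14 of 26 chains. Those that were higher in it included Lamb3, Itgb4, Itga3, Lama5, Itga8, Itga2, Itgb8 and Itgb6, and Itga5, Itga11, Lama2, Lamc1 and Lamb2 were lower. The 14 chains compare with 16.9% of all genes, of which 8.85% were higher and 8.05% lower. The difference was 6.63 log2 units for Lamb3 (SE 0.39, adjusted p = 0.00534, limma), 6.51 for Itga3 (SE 0.78, adjusted p = 0.0170, limma) and 6.55 for Itgb4 (SE 0.75, adjusted p = 0.0159, limma). It was -6.69 for Itga5 (SE 0.34, adjusted p = 0.00458, limma) and -5.12 for Itga11 (SE 0.78, adjusted p = 0.0262, limma). Without the filter on low values, Itga11, Lama2, Lamb2 and Lamc1 were no longer called (adjusted p = 0.0520, 0.0777, 0.0654 and 0.0508, limma). Lama2 also lost its call without the state covariate (adjusted p = 0.0526, limma). These differences are on the log2(FPKM + 1) scale, which understates the change of low genes.

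Line 45566B differed from 47298 in 10 of 26 chains. Those that were higher in it included Lamb3 (5.59 log2 units, SE 0.39, adjusted p = 0.00769, limma), Itga2, Itga9, Itgb6 and Itgb8. It was lower in Itga5 (-5.37, SE 0.34, adjusted p = 0.00656, limma), Itga7 (-4.40, SE 0.66, adjusted p = 0.0300, limma), Itga11 and Lamb2 (-3.16, SE 0.34, adjusted p = 0.0174, limma). Several of these calls lay close to the threshold. Without the filter, Itga2, Itga7, Itga9, Itga11 and Itgb8 were no longer called (adjusted p of 0.0565 to 0.0837, limma). Itgb8 also lost its call with a pseudocount of 0.1 and with median-of-ratios scaling, and Itga9 and Itga11 without the state covariate. Itga9 lost it with either library of 47298 left out, and Itga2, Itga11 and Itgb8 with its wild-type library left out. The 10 chains compare with 15% of all genes, 8.48% higher and 6.5% lower. Between 47298 and 45555 no gene was called by limma, 0% of all genes, although 11 of the 26 chains had an unadjusted p under 0.05, beside 2549 genes (21.1% of all genes). The median difference over the 26 chains was 0.92 log2 units for 45566B minus 45555 and 0.46 for 45566B minus 47298, beside -0.01 for all genes in both. With 1 library of line 45555 or 45566B left out, no gene and no chain was called in any of these tests. With the wild-type library of 47298 left out, 18 chains were called in 45566B against 45555 and 8 in 45566B against 47298. With the knockout library of 47298 left out, 18 and 16 were called. The luminal marker sums given above were far higher, and the fibroblast sums far lower, in 45566B than in 45555 and 47298. Their part in these differences was not tested.

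**Figure D4:**
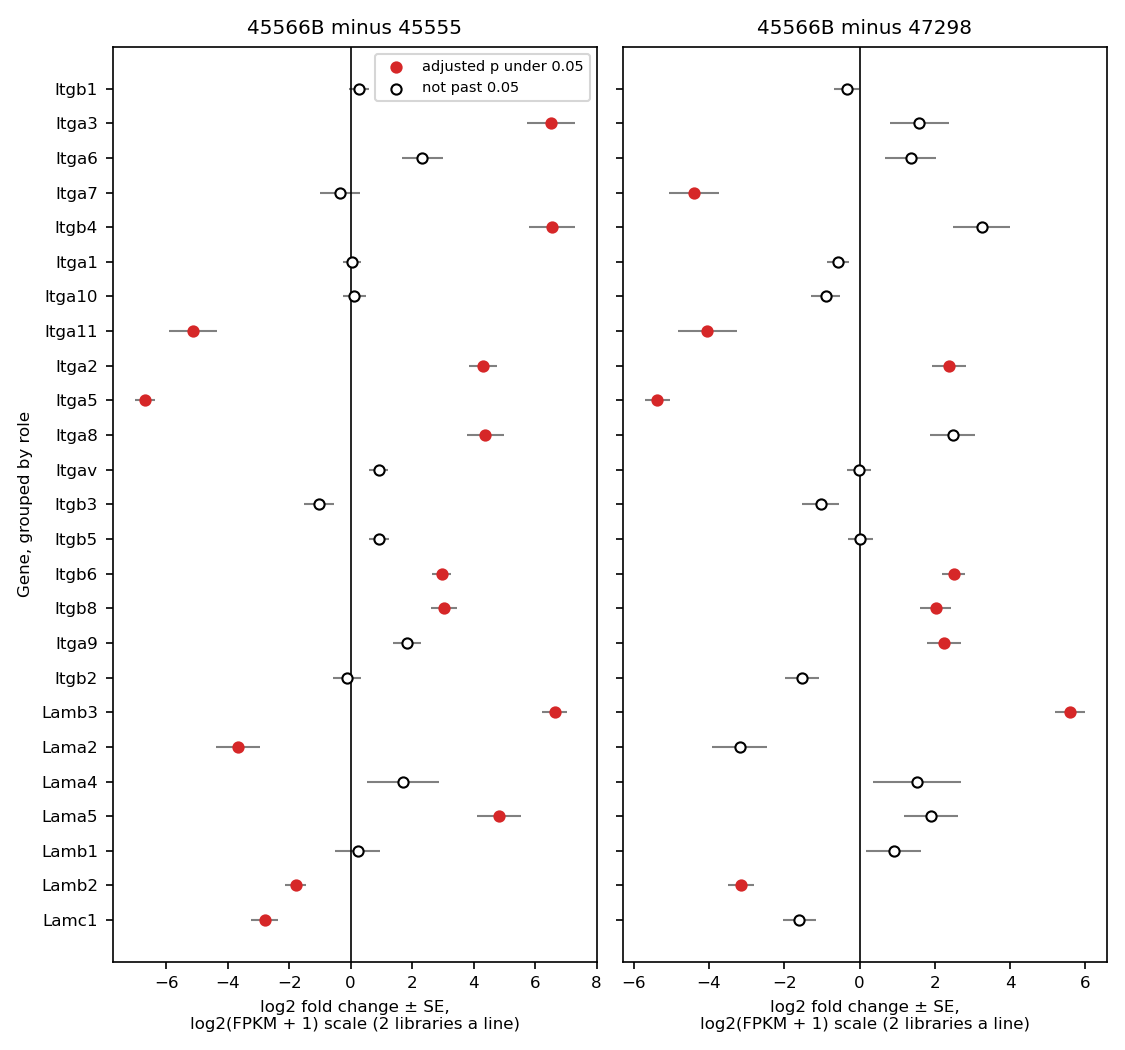
Difference between lines in the tested chains described here, on the log2(FPKM + 1) scale (horizontal axis) with its standard error, for 45566B minus 45555 (left) and 45566B minus 47298 (right), with 2 libraries a line. Filled points mark an adjusted p under 0.05, and Lamb3, Itga5 and Itga11 are filled in both panels.

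Genes that work with these chains were read from lists of the adhesome (proteins that link integrins to actin), other basement membrane components and integrin ligands other than laminins. In 45566B against 45555, 3 of 25 tested adhesome genes were higher and 6 lower, 2 of 13 basement membrane genes were higher and 5 lower, and 2 of 15 ligands were higher and 5 lower, beside 8.85% of all genes higher and 8.05% lower. In 45566B against 47298 the counts over the same lists were 3 higher and 5 lower, 1 and 3, and 1 and 6, beside 8.48% and 6.5% of all genes. Agrn (agrin, a basement membrane proteoglycan that binds laminin) was higher in both, by 3.29 and 2.48 log2 units, and Hspg2 (perlecan) was lower, with differences of -6.31 and -4.90. Fn1 (fibronectin, the ligand of the alpha5 chain) was lower in both, with differences of -3.14 and -3.89, and Tns4 (a tensin of epithelial adhesions) was higher, by 5.16 and 5.15. The named adhesome gene Cd151, a tetraspanin that binds alpha3 and alpha6 integrins, passed no test, with 121 and 143 FPKM in 45555, 170.0 and 422 in 47298 and 264 and 269 in 45566B. Sparc, Nid1 (nidogen, which bridges laminin and collagen IV) and Postn were lower in 45566B than in 45555, with differences of -8.78, -8.54 and -8.76. Against 47298, Sparc (-7.67) and Postn (-7.17) were lower, while Nid1 (-7.11, SE 1.499) did not pass, with an adjusted p of 0.0527 in limma.

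Knockout was set against wild type within the 3 paired lines, to ask whether the loss of Jak1 goes with the levels of these chains. No chain was called in either direction, and none of the 12063 genes was (0% of all genes, limma), while 1 chain, Itgav, had an unadjusted p under 0.05, beside 406 genes (3.37% of all genes). Itgav differed by 0.81 log2 units (SE 0.26, adjusted p = 0.762, limma), with the knockout above the wild type in each of the 3 lines. Lama4 was at -2.42 (SE 0.96, adjusted p = 0.762, limma), with the knockout below the wild type in each line. Without line 47298 the estimates were 0.52 for Itgav and -1.09 for Lama4. The knockout lay below the wild type in every line in 4 of 26 chains (Itga11, Lama2, Lama4 and Lamc1), against 13.3% of all genes. It lay above in 3 of 26 (Itgav, Itgb1 and Itgb6), against 14.3%, so both counts were near the background. Some of these directions rest on values near 0 or level. In 45566B, Lama2 was at 0.00511 and 0 FPKM, Itga11 at 0.0257 and 0.0155 and Lamc1 at 27.1 and 27.0. In 45555, Itgb6 was at 0 and 0.0167. The median over the 26 chains was 0.19 log2 units, beside -0.01 for all genes. None of the adhesome, basement membrane or ligand genes passed either.

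The 3 lines are given separately because the differences were of unlike size in them. In 45555, no chain was higher by more than 1 log2 unit in the knockout library and 2 of 26 were lower (Itga11 and Lama4), against 3.2% and 6.68% of all genes. In 45566B none was higher and 1 was lower (Itga9), against 0.854% and 2.17%. In 47298, 11 chains were higher (Itga2, Itga3, Itga6, Itga7, Itga8, Itgav, Itgb1, Itgb2, Itgb4, Lama5 and Lamb3) and 6 lower (Itga11, Itgb3, Lama2, Lama4, Lamb1 and Lamc1), which is 65.4% of the 26 chains, against 8.49% and 11% of all genes. These are differences between 2 libraries with no replicate, so they have no test. Lama4 was lower in the knockout library by a factor of 3.04 in 45555, 44.1 in 47298 and 1.57 in 45566B. In 47298 the leading laminin alpha chain was Lama4 in the wild-type library (85.0% of the alpha chains, 13.3% in knockout) and Lama5 in the knockout library (76.3%, 1.75% in wild type). Lamb2 held 28.5 and 77.0% of the beta chains there. Between the same 2 libraries the fibroblast marker sum went from 5635 to 356 FPKM, the adipocyte sum from 908 to 15.6 and the luminal sum from 100.04 to 414. The collagens Col1a1 (1728 to 65.5), Col1a2 (2510 to 94.3) and Col3a1 (738 to 24.7) made up most of the fibroblast sum in wild type. Dcn rose from 12.2 to 27.3, and Lum and Fap stayed under 1 FPKM. Fabp4 (885 to 15.5) held most of the adipocyte sum, and was at 331 and 311 in 45555, where Adipoq was at 0. The part of these markers in the chain differences was not tested.

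**Figure D5:**
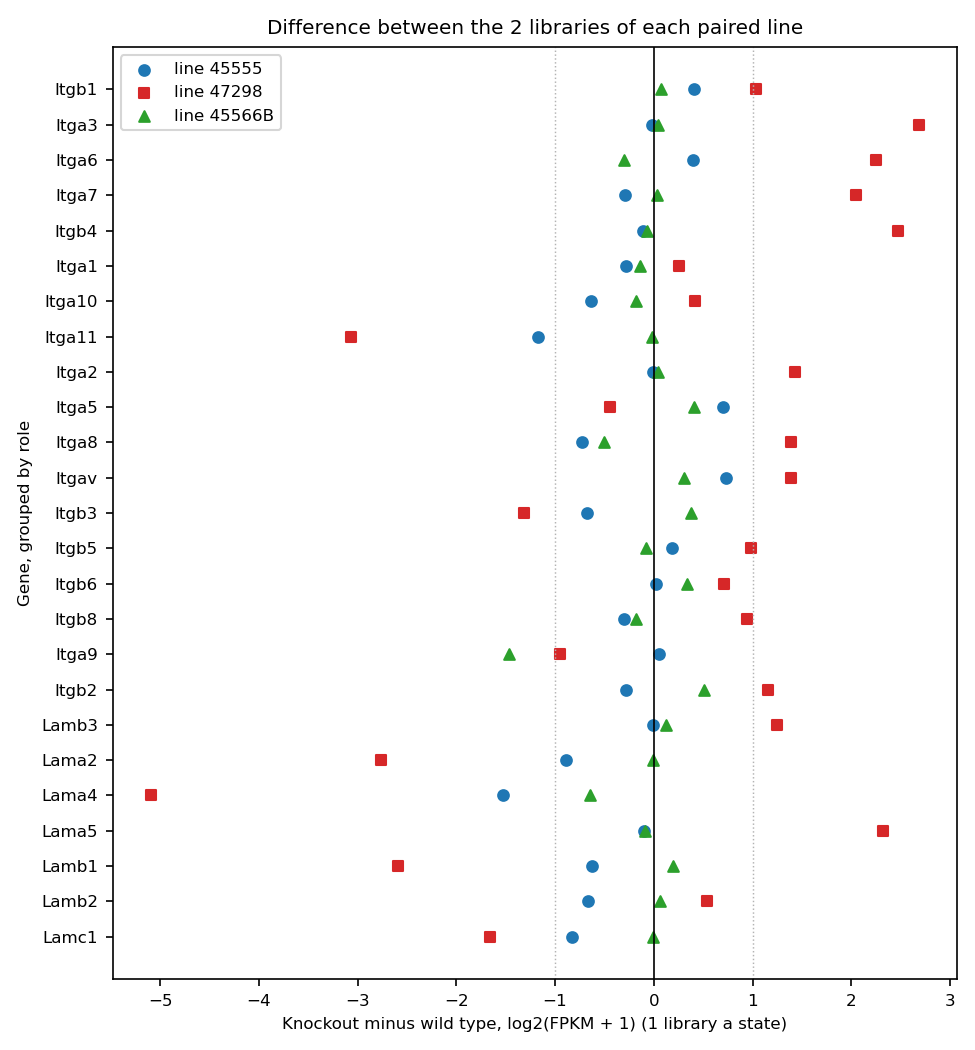
Knockout minus wild type in the tested chains described here, on the log2(FPKM + 1) scale (horizontal axis), 1 point for each of the 3 paired lines and 1 library a state. Most points beyond the dotted lines at 1 log2 unit belong to line 47298, with Lama4 the lowest at -5.09.

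A second comparison set the knockout libraries of 45566B and 46295 against the wild-type libraries of 45566B, 33373 and 33377. It shares both 45566B libraries with the paired comparison. The fit had no term for line, so these libraries of 1 line entered on opposite sides as if independent. Its standard errors and p-values ignore that pairing. No chain and none of 11838 genes was called (0% of all genes, limma), while 0 chains had an unadjusted p under 0.05, beside 215 genes (1.82% of all genes). Both knockout libraries were above all 3 wild-type libraries in 5 of 25 tested chains (Itga2, Itga3, Itgb1, Itgb6 and Lamb3), against 7.67% of all genes, and below them in 0 of 25, against 6.43%. Lamb3 differed by 2.63 log2 units (SE 1.92, adjusted p = 0.999, limma), Itga2 by 2.22 (SE 1.39), Itgb6 by 1.64 (SE 0.88), Itga3 by 0.50 (SE 0.30) and Itgb1 by 0.36 (SE 0.27), each with the same adjusted p. The wild-type library of 33377 was the lowest in each of these 5 chains, and without it the differences were 0.72, 0.88, 0.81, 0.30 and 0.17 in the same order. Without 33377 the same 5 chains still lay above the remaining wild-type libraries, against 11.1% of all genes. The highest wild-type library in each was that of 45566B. The knockout library of 45566B exceeded it by 0.12, 0.04, 0.34, 0.04 and 0.07 log2 units, in the same order. The luminal marker sum of 33377 was 162 FPKM, beside 2701 to 3238 in the other 4 libraries, and its part in these differences was not tested.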

How the data were processed

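RNA was sequenced from 9 libraries of MMTV-neu tumour lines (oligo-dT first strands, TruSeq kit, per the labels' protocols). The authors deposited FPKM by gene symbol. The submitters' processing notes list build mm10 and, without their roles, the tools Cuffnorm, Cufflinks 2.2, TopHat2 2.1 and cutadapt. Absolute depth is unknown, and the sources used here do not give the annotation, strand setting or scaling option. The smaller table of 4 libraries held values identical to the larger one in all 24346 rows, so the larger was used. Its columns for 33373 and 33377 lack a suffix that the other 7 carry, so their scaling may differ. Their median-of-ratios factors in the second comparison were 0.986 and 0.9998, beside 0.998 to 1.025 in the other libraries of that comparison. In 27 names a spreadsheet had made a date, and 4 rows with a repeated name were left out. All 37 chains were found in the GENCODE vM21 annotation, which gave transcript lengths.

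Each comparison kept genes whose mean over its libraries reached 1 FPKM. Values were tested on the log2 scale after adding 1 FPKM, with limma 3.58.1 (R 4.3.3) and a variance trend, two-sided, with Benjamini-Hochberg adjustment at 0.05 over all genes. Groups came from the labels. The paired comparison had the line as a block. Libraries were paired by the line their titles name, and those of 1 line deviated together (correlations of 0.700 in 45555, 0.399 in 47298 and 0.804 in 45566B). Every chain entered the counts, and the values of 1 chain are not reported here. Of each other list, the 3 genes with the highest mean and up to 3 with the smallest p between lines could be named. Epcam, Krt8, Krt19, Cd68, Ptprc, Cd3e and Tyrobp were named after their values were seen. So were Col1a1, Col1a2, Col3a1, Dcn, Lum, Fap, Fabp4 and Adipoq. The members and lists were chosen with earlier results of these data known. Alternatives were a pseudocount of 0.1, no filter, median-of-ratios scaling, no trend, no block or covariate, and libraries left out. The line comparison without 47298 was added after seeing the data. The fits were tested on simulated data, with shifts set in well-expressed genes. The paired fit recovered 0.4% of shifts of 1 log2 unit, 42.4% of 2 and 87.6% of 4. The second comparison recovered 0%, 19.6% and 78.4%, and 45566B against 45555 recovered 0.8%, 20.8% and 78.8%. Of the simulated calls, 4.32 to 5.37% were false. A chain that was not called may therefore still differ by 1 or 2 log2 units, or by more. Itga3 differed by 4.93 log2 units for 47298 minus 45555 (SE 0.78) and was not called (adjusted p = 0.153, limma).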

Additional observations from a re-analysis of the deposited data

Results flagged for a closer look

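In 3 of 52 groups of chain values (5.77%), a single library lay far from the others of its Jak1 state by Dixon's gap test, which chance alone does in about 1 in 20 groups. Itga3 had its lowest knockout value in 45555, at 1.18 FPKM, where the other 3 knockout libraries were at 169 to 248, and the wild-type library of that line was also low, at 1.22. Itga9 had its highest wild-type value in 45566B, at 11.2 FPKM, where the other 4 wild-type libraries were at 0.205 to 1.16. Itgb1 had its highest knockout value in 47298, at 720.5 FPKM, where the other 3 were at 381 to 423.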

How the results depend on the processing

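The labels name no replicate cultures, and each state of a line rests on 1 library. In the paired and the mixed-line comparisons, no chain was called under any alternative run. Without the replicate block the paired comparison called 0 genes (58 at an unadjusted p under 0.05, limma). The block changed no other call. With a library pair left out, it called 0 to 6 genes, the 6 without line 47298. The mixed-line comparison called 4 genes with a pseudocount of 0.1. For 47298 minus 45555, 9 genes were called with a pseudocount of 0.1 and 56 without the state covariate. Without the filter on low values, 6 chains in place of 13 were called between any lines, 5 in place of 10 for 45566B minus 47298 and 11 in place of 14 for 45566B minus 45555 (10 of them among the 14), with 17982 genes tested. Leaving out 1 library gave 0 to 3024 genes and 0 to 17 chains between any lines, 0 to 3241 and 0 to 18 for 45566B minus 45555, 0 to 1993 and 0 to 16 for 45566B minus 47298, and 0 to 651 and 0 to 6 for 47298 minus 45555. The added comparison of 45566B with 45555 without line 47298 called 3515 genes and 19 chains, which include all 14. The cause of these shifts was not tested. Of the chain differences printed, none changed sign under any alternative.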
